A study of Homo sapiens with 12 samples.

Results

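The genes described here stood at one level in all groups of cells exposed to an oestrogenic compound and at another in the solvent control. IOSE80 is an immortalised line of human ovarian surface epithelial cells. RNA was sequenced after 28 days in 0.1% DMSO (n = 3), bisphenol A (BPA) at 0.25 nM (n = 3), BPA at 2500 nM (n = 3) or E2 (n = 2), the usual short name of estradiol. All groups were the same cell line, no group carried a further allele or agent per the labels, and no solvent is named for the BPA or E2 groups. No dose of E2 was found in the sources used here, and the third E2 library was not analysed here. DMSO was the only group without a compound, so exposure and anything else that set the DMSO cultures apart cannot be told apart. No label states whether replicates came from separate cultures, so the p-values reflect only how these libraries vary, which may be technical variation.

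Of the 12 samples in the labels, 11 were used, 3 DMSO libraries against 8 treated ones. For each locus the mean of the 3 treated groups, each weighted equally, was set against DMSO. Values are FPKM, fragments scaled to transcript length and library size, and differences are treated minus DMSO on the scale log2(FPKM + 1), which understates changes of low genes. Tests covered the 12182 of 30574 loci that reached an FPKM of 1 in 2 or more libraries. A locus was called at a Benjamini-Hochberg adjusted p under 0.05 in limma. A called locus was taken to have a common treated level under 2 further conditions. Its 3 DMSO values lay all below or all above its 8 treated values, and its treated group means spanned at most 0.5 of its difference from DMSO. At these loci the evenness of the treated groups and the lack of overlap with DMSO therefore follow from the conditions. Both are a description and were not tested.

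Estradiol acts mainly through nuclear oestrogen receptors, which bind DNA as pairs at oestrogen response elements and recruit co-activators to nearby genes. BPA, a building block of polycarbonate plastics, binds the same receptors weakly. In cells that respond to oestrogen, both can raise growth genes, and among these are genes of the nucleolus, where ribosomal RNA is made and ribosome subunits are assembled. In these cells the receptor transcripts were close to absent: the highest values listed in a library were 0.02 FPKM for ESR1 and 0.04 FPKM for ESR2. GPER1, a receptor for estradiol in membranes, lay between 1.39 and 3.05 FPKM.

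The libraries were alike in scale. FPKM totals lay between 206719 and 213663, which does not measure read depth, and 21223 to 23696 loci stood above 0. Each library's median Pearson r with the others, across loci, lay between 0.976, in E2 replicate 2, and 0.982. DMSO replicate 2 and E2 replicate 2 had the lowest totals. Mitochondrial loci took 13.6% to 14.3% of the FPKM in DMSO and 12.3% to 14.0% in the treated libraries (exact permutation test, two-sided, p = 0.0667). Of 17 ovarian surface and epithelial markers, 9 had a mean under 0.1 FPKM, among them CDH1, WT1 and PAX8, while KRT18 stood at 19.8 to 27.0 FPKM and ALDH1A1 at 94.98 to 121 FPKM. The summed level of this list was 136 to 152 FPKM in DMSO and 123 to 144 FPKM in the treated libraries. The mesenchymal filament gene VIM stood at 624 to 828 FPKM. Its list of 17 mesenchymal and fibroblast markers summed to 743 to 928 FPKM in DMSO and 718 to 922 FPKM with treatment. Most of this sum was VIM, and 5 of the 17 had a mean under 0.1 FPKM, namely FN1, COL1A2, DCN, LUM and PDGFRB. PTPRC of leukocytes, CDH5 of endothelium and CYP19A1 of granulosa cells were listed at 0.01 FPKM or less, and no member of the marker lists was called in limma as fitted, although COL3A1 was with totals equal without mitochondrial loci (-0.19; adjusted p = 0.0451). The leukocyte list summed to 43.1 to 49.7 FPKM over all libraries, nearly all of it at a locus that joins CD68 to other genes, and the granulosa and stromal list to 6.89 to 10.3 FPKM, led by FOXL2 at 5.36 to 7.70 FPKM. The endothelial list summed to 8.38 to 10.9 FPKM in DMSO, 8.61 to 9.59 with BPA 0.25 nM, 8.32 to 8.71 with BPA 2500 nM and 5.95 to 8.17 with E2, nearly all of it EGFL7, so that E2 lay below DMSO, and its part in the results was not tested.

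Exposed cells had higher transcripts of SZRD1, CCDC69 and some genes of ribosome assembly, such as NOP16 and EBNA1BP2, and lower transcripts of genes such as ADAMTSL4, FSCN1, BNIP3 and IFIT1. In all, 124 loci were called, 1.02% of those tested. Of these, 48 were higher with treatment (0.394%) and 76 lower (0.624%). The sizes were small: the median called difference was 0.30 on the log2 scale, and 4 loci differed by at least 1. DMSO and treated libraries did not overlap at 113 of the 124, while over all tested loci 654 (5.37%) had no overlap. The call and the overlap use the same values, so a high share without overlap among called loci largely follows from the call. A common treated level was found at 44 loci, 0.361% of those tested, 24 higher (0.197%) and 20 lower (0.164%) than in DMSO. Of these 44, 37 named exactly 1 protein-coding gene. At 17 of the 44, another locus with a mean FPKM of at least 1 lay over part of the same positions. Among them were NOP16 with HIGD2A (mean 102 FPKM), IFIT1 with LIPA (52.5) and TCTA with RHOA (217), each on the other strand. Strand is unknown, so reads there may belong to either locus. Without the limit on the spread the loci at a common level would be 113, and with a limit of 0.25 they would be 15. These counts rested most on DMSO replicates 1 and 2. Leaving out DMSO replicate 1, 2 or 3 left 8, 7 and 40 called loci and 6, 5 and 22 at a common level. Leaving out a BPA library left 41 to 73 called loci and 13 to 23 at a common level, and leaving out E2 replicate 1 or 2 gave 166 and 190 called loci. All 44 kept their sign in each of 22 alternative fits. The rule of no overlap fixes this in advance in every fit except those with another scaling or the replicate block.

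The split into higher and lower loci depended on the scaling. With libraries scaled by the median of ratios, 94 called loci were higher and 59 lower, and at the common level 35 and 21. With totals made equal without mitochondrial loci, 45 were higher and 116 lower, and at the common level 16 and 35. The median of all tested loci was -0.01 as deposited, 0.01 under the first scaling and -0.03 under the second.

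**Figure D1:**
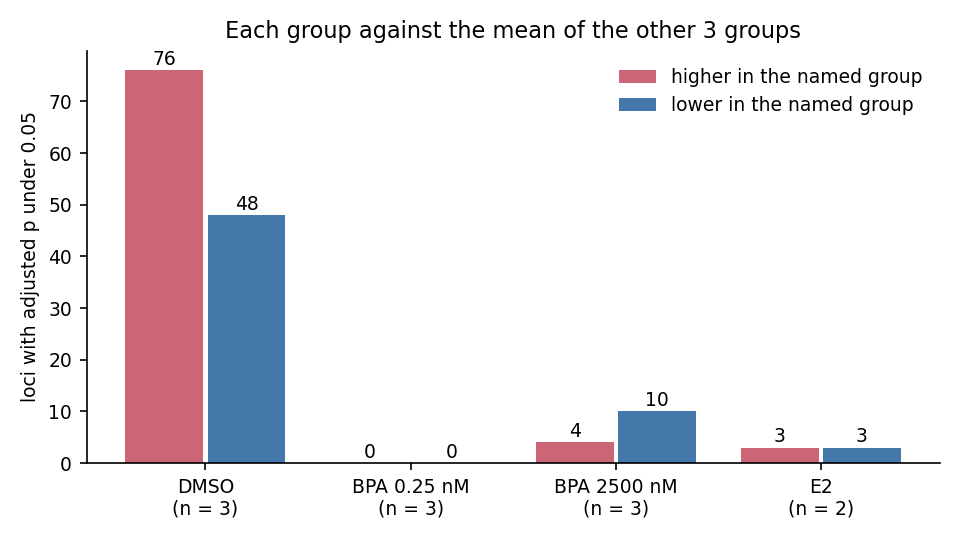
Bars give the number of loci called in limma (y axis, count) when each of the 4 groups (x axis) is set against the mean of the other 3 groups, split by direction. With all libraries used, DMSO differed from the rest at 124 loci, BPA 2500 nM at 14, E2 at 6 and BPA 0.25 nM at 0. These counts changed when single libraries were left out.

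Set against the mean of the other 3 groups in the same way, DMSO was the group with the most called loci when all libraries were used. BPA 2500 nM differed from the others at 14 loci (0.115%), 4 higher and 10 lower, and E2 at 6 (0.0493%), 3 in each direction. BPA 0.25 nM differed at 0 loci in limma, although 901 had an unadjusted p under 0.05, as did 1950 loci for DMSO. The E2 count rested on its 2 libraries, since without E2 replicate 1 it was 162 and without E2 replicate 2 it was 26. The BPA 2500 nM count was 24 and 31 without those 2 libraries, 4 and 7 without DMSO replicates 1 and 2, 5 without BPA 0.25 nM replicate 3, and between 1 and 9 without one of the BPA 2500 nM libraries (1 without replicate 3). Without DMSO replicate 2 DMSO also had 7 called loci, so it no longer led. The BPA 0.25 nM count was at most 5 when any single library was left out, the highest value being without E2 replicate 1. Each treated group was also set against the same 3 DMSO libraries, so these comparisons share their control values: 2 loci were called for BPA 0.25 nM (0.0164%), 158 for BPA 2500 nM (1.3%), 49 of them higher (0.402%) and 109 lower (0.895%), and 51 for E2 (0.419%), 20 higher (0.164%) and 31 lower (0.254%). Of the 44 loci at a common level, 2 were called for BPA 0.25 nM alone against DMSO, 29 for BPA 2500 nM and 6 for E2, and 15 were called in none of the 3. Those 15 included BNIP3, CHCHD10, SRXN1, GPATCH4, GIPR, RPL5, BZW2, MCM7, CCT3, PPP1R3C and LENG8, which passed the test of the treated mean but that of no single group.

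**Figure D2:**
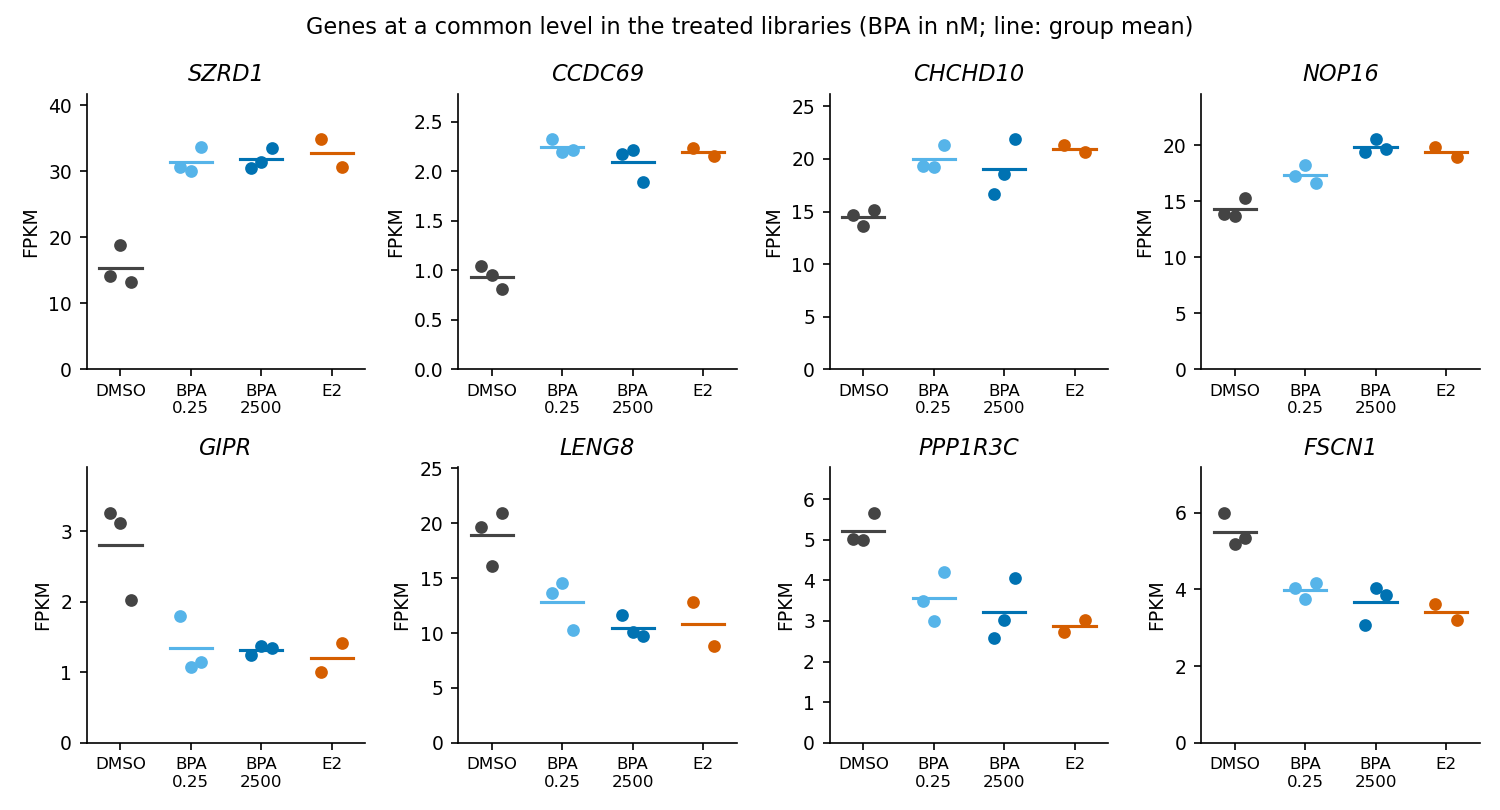
Each point is the FPKM (y axis, from 0) of 1 library in DMSO, BPA 0.25 nM, BPA 2500 nM or E2 (x axis) and each line a group mean, for 4 genes higher and 4 lower with treatment. In each panel the 3 DMSO libraries lie apart from all 8 treated libraries, as the rule of the common level requires. SZRD1 rises from 13.3 to 18.8 FPKM in DMSO to 30.0 to 34.8 FPKM with treatment.

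SZRD1 and CCDC69 showed the clearest step from DMSO to one shared level. SZRD1 encodes a protein with an RNA-binding SUZ domain and lay at chr1:16352575-16395406 on the plus strand. It stood at 14.1, 18.8 and 13.3 FPKM in the DMSO libraries, at 30.6, 30.0 and 33.7 with BPA 0.25 nM, at 30.6, 31.5 and 33.6 with BPA 2500 nM and at 34.8 and 30.7 with E2. The treated values were all close to each other and far above DMSO, with no overlap, as the rule requires. The difference was 1.02 ± 0.094 (log2, SE; adjusted p = 0.00391), a ratio of 2.08 on the linear scale. The treated means of SZRD1 differed little beside their error: BPA 2500 nM minus BPA 0.25 nM was 0.02 (95% interval -0.24 to 0.27) and E2 minus BPA 2500 nM was 0.04 (-0.25 to 0.32).

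CCDC69, whose coiled-coil product sits on the central spindle of dividing cells, lay at chr5:151181052-151224093 on the minus strand. It stood at 1.04, 0.95 and 0.81 FPKM in DMSO, at 2.32, 2.19 and 2.21 with BPA 0.25 nM, at 2.17, 2.21 and 1.89 with BPA 2500 nM and at 2.23 and 2.15 with E2. Every treated library was above every DMSO library, as the rule requires, and the treated groups followed no order of dose. In DMSO only the value of 1.04 reached an FPKM of 1, so CCDC69 passed the filter on low values through its treated libraries. The difference was 0.72 ± 0.055 (SE; adjusted p = 0.002), and with a pseudocount of 0.1 in place of 1 it was 1.14. The E2 minus BPA 0.25 nM difference at CCDC69 was -0.02 (95% interval -0.19 to 0.14). The locus overlaps GM2A on the other strand, which was at -0.08 (adjusted p = 0.516). SZRD1 and CCDC69 were the 2 loci called for BPA 0.25 nM against DMSO, and of the 44 they alone were called in all 11 fits that left out 1 library.

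The promoters of these 2 genes are shown because their transcripts rose most among loci of 1 coding gene at a common level, followed by 3 genes that rose and hold an E-box. The E-box, the letters CACGTG, reads the same on both strands and is bound by MYC with MAX and by related factors. Each window holds the 250 bases before the RefSeq start of the gene (GRCh38.p14), 5′ to 3′ on the gene's strand, with the E-box in capitals.
SZRD1 (chr1:16366992-16367241, plus strand): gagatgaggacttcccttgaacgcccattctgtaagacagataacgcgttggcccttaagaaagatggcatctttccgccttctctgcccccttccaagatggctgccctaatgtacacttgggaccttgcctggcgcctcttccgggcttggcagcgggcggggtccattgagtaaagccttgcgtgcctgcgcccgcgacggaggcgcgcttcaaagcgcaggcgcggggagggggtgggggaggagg
CCDC69 (chr5:151224093-151224342, minus strand): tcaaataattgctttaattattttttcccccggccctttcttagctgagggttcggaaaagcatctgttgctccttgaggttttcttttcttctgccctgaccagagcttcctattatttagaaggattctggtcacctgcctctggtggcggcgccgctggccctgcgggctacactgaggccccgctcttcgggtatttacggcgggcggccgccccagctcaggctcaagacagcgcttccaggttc
EBNA1BP2 (chr1:43172571-43172820, minus strand): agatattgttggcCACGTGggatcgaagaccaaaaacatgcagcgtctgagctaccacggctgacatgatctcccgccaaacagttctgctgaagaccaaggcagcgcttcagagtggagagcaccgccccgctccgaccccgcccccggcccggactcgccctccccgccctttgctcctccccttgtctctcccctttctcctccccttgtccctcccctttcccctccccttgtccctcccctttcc
MCM7 (chr7:100101398-100101647, minus strand): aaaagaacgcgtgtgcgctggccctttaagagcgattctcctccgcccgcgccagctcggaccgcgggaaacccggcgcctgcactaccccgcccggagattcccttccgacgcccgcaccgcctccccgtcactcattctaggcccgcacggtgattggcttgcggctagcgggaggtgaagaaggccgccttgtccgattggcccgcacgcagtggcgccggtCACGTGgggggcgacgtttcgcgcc
HNRNPM (chr19:8444725-8444974, plus strand): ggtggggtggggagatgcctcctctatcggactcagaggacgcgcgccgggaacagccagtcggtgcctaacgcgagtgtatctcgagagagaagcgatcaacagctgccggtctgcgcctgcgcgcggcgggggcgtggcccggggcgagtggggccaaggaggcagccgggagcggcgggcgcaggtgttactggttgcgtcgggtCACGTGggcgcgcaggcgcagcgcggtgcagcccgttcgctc
The deposited loci of SZRD1, EBNA1BP2 and MCM7 begin upstream of these windows, so their FPKM can include transcripts from other starts.

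An E-box was present in 3 of 18 such promoters of genes at a higher common level, in 2 of 16 of those at a lower one (BNIP3 and PPP1R3C), and in 7 of 44 of the nucleolar genes described below. One was held by 9.20% of the promoters of 7597 tested genes and by 6.49% of all 27305 promoters. The oestrogen response element, GGTCA and TGACC parted by NNN, which also reads the same on both strands, was in none of the promoters of either direction and in 12 of all 27305. A match of letters is a description and not a bound site.

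**Figure D3:**
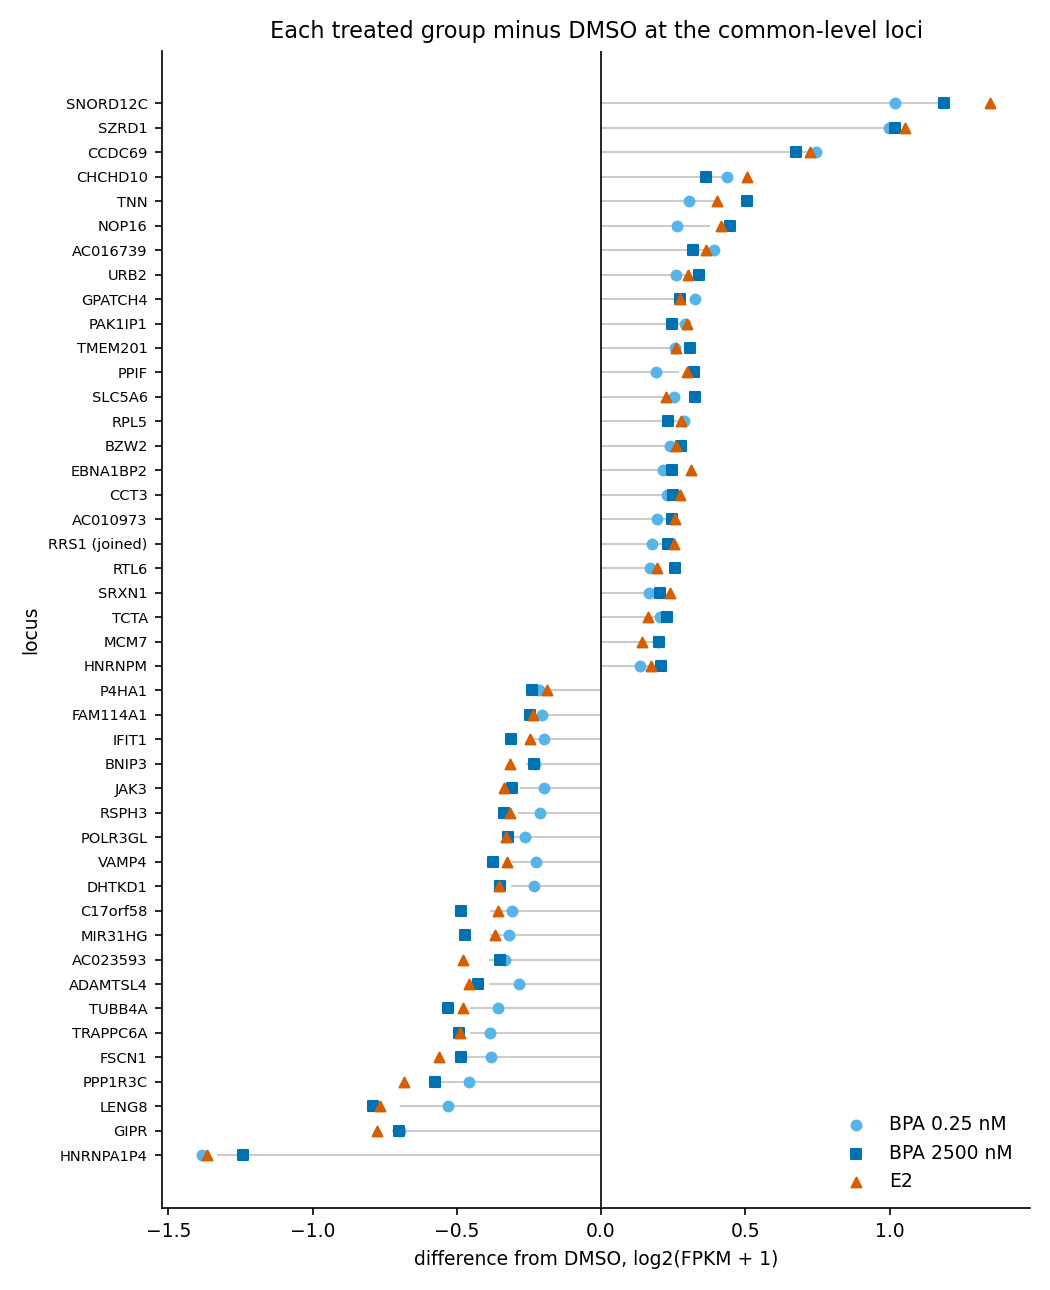
Each point is the difference of 1 treated group from DMSO on the log2(FPKM + 1) scale (x axis) at the 44 loci with a common treated level (y axis), and each grey line ends at the mean of the 3 treated groups. The differences run from -1.33 for HNRNPA1P4 to 1.19 for SNORD12C. All 3 groups lie on the same side of 0 at each locus, as the rule of the common level requires.

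The other coding genes at a higher common level are given with their known roles. Of the lists, 4 of 49 nucleolar genes and 1 of 79 cytosolic ribosomal proteins were among them, beside 0.197% of all tested loci. NOP16, which acts in large-subunit assembly in the nucleolus, stood at 13.9, 13.7 and 15.3 FPKM in DMSO. It stood at 17.3, 18.2 and 16.6 with BPA 0.25 nM, at 19.4, 20.5 and 19.7 with BPA 2500 nM and at 19.8 and 18.9 with E2. BPA 0.25 nM was the lowest treated group for NOP16, without overlap with DMSO as the rule requires (difference 0.38 ± 0.046 SE; adjusted p = 0.0139). URB2, which encodes a protein of early large-subunit assembly, was tight in DMSO at 4.07 to 4.22 FPKM and lay at 5.10 to 5.86 FPKM with treatment (0.30 ± 0.043; adjusted p = 0.0197). GPATCH4, a nucleolar G-patch protein gene, went from 16.2 to 18.0 FPKM in DMSO to 19.98 to 23.2 FPKM with treatment (0.29 ± 0.051; adjusted p = 0.0363). PAK1IP1, another gene of large-subunit assembly, went from 19.2 to 21.1 FPKM to 23.1 to 25.5 FPKM (0.28 ± 0.039; adjusted p = 0.0197). EBNA1BP2, of the same process, stood at 41.7, 41.0 and 42.2 FPKM in DMSO and at 47.8 to 53.4 FPKM with treatment (0.26 ± 0.032; adjusted p = 0.0139). RPL5, the large-subunit protein that carries the 5S RNA, went from 110.1, 126.7 and 109.7 FPKM to 134.6 to 145.2 FPKM (0.27 ± 0.048; adjusted p = 0.0384). RRS1 rose by 0.22 at a locus that the files join with ADHFE1 and VXN, so the share of each gene in it is not known.

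The remaining coding genes rose by 0.17 to 0.44. CHCHD10, a gene of the mitochondrial cristae, stood at 14.7, 13.6 and 15.1 FPKM in DMSO and at 16.7 to 21.9 FPKM with treatment (0.44 ± 0.073; adjusted p = 0.0304). PPIF, which encodes cyclophilin D of the mitochondrial permeability transition pore, went from 22.1 to 24.7 FPKM to 24.9 to 30.7 FPKM (0.27 ± 0.050; adjusted p = 0.0431). Its highest DMSO library and lowest treated library lay next to each other, and it was called in none of the 11 fits that left out a library. CCT3, a subunit of the chaperonin that folds actin and tubulin, differed by 0.25 ± 0.047 (adjusted p = 0.0439). BZW2, a gene that acts on translation initiation, differed by 0.26 ± 0.048 (adjusted p = 0.0426). SLC5A6, the sodium-dependent transporter of biotin and pantothenate, differed by 0.27 ± 0.041 (adjusted p = 0.0249). TMEM201, an inner nuclear membrane protein gene, differed by 0.27 ± 0.046 (adjusted p = 0.0304). SRXN1, the sulfiredoxin that repairs oxidised peroxiredoxins, MCM7, a subunit of the replicative helicase, HNRNPM, a splicing factor gene, RTL6 and TCTA rose by 0.17 to 0.21. HNRNPM was the smallest of these in size but had DMSO values of 46.2, 46.5 and 46.0 FPKM against 50.6 to 54.8 FPKM with treatment.

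The remaining loci of this direction name no coding gene or an uncertain one. SNORD12C, a small nucleolar RNA locus inside the host gene ZFAS1, stood at 0.43, 1.49 and 0.35 FPKM in DMSO and at 2.18 to 3.76 FPKM in all treated libraries. It too passed the filter on low values only through its treated libraries. Its difference was 1.19 ± 0.184 (adjusted p = 0.0263), and 2.02 with a pseudocount of 0.1, while the host locus was at 0.03 (adjusted p = 0.807). The locus filed under TNN lies on the strand opposite to that gene, and it rose by 0.40. The clone loci AC016739 and AC010973 rose by 0.36 and 0.23, and the second overlaps SLC4A2 on the other strand.

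Of the 20 loci at a lower common level, 16 stood under 10 FPKM in DMSO, a share near that of all tested loci (8505 of 12182), beside 8 of the 24 higher ones. GIPR, the receptor of the gut hormone GIP, lay at chr19:45668221-45683722 on the plus strand. It stood at 3.26, 3.12 and 2.03 FPKM in DMSO, at 1.8, 1.07 and 1.15 with BPA 0.25 nM, at 1.24, 1.37 and 1.34 with BPA 2500 nM and at 1.0 and 1.41 with E2. DMSO replicate 3 lay close to the highest treated library, without overlap as the rule requires (-0.72 ± 0.128 SE; adjusted p = 0.0368). GIPR overlaps SNRPD2 on the other strand, which has a mean of 75.5 FPKM, so that reads of these genes cannot be told apart without strand. LENG8 stood at 19.7, 16.2 and 20.9 FPKM in DMSO and at 8.83 to 14.6 FPKM with treatment (-0.70 ± 0.134; adjusted p = 0.04997, just under the threshold). PPP1R3C, which targets protein phosphatase 1 to glycogen, stood at 5.03, 4.99 and 5.66 FPKM in DMSO, at 3.48, 2.99 and 4.20 with BPA 0.25 nM, at 2.58, 3.02 and 4.05 with BPA 2500 nM and at 2.73 and 3.03 with E2. The treated groups overlapped each other and, as the rule requires, none reached DMSO (-0.57 ± 0.11; adjusted p = 0.0478). The calls of LENG8 and PPP1R3C were fragile: each held in 1 of the 11 fits that left out 1 library, and both were lost with either smaller pseudocount, the median of ratios or plain variance settings. Other calls at a common level were as fragile when 1 library was left out. Those of CCT3, TRAPPC6A, JAK3 and the RRS1 locus also held in 1 of the 11 fits. Those of MCM7, HNRNPM, SRXN1, BZW2, GPATCH4, RPL5, TCTA, RTL6, FAM114A1 and VAMP4 held in 2.

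Further coding genes fell by 0.29 to 0.48. FSCN1, the actin-bundling fascin, stood at 5.99, 5.18 and 5.35 FPKM in DMSO and at 3.08 to 4.16 FPKM with treatment (-0.48 ± 0.073; adjusted p = 0.0249). TUBB4A, a beta-tubulin gene, stood at 4.22, 4.01 and 4.01 FPKM and at 2.19 to 3.47 FPKM (-0.45 ± 0.078; adjusted p = 0.0318). TRAPPC6A and VAMP4, which act in vesicle tethering and fusion, fell by 0.46 and 0.31, and RSPH3, a radial spoke gene, fell by 0.29. ADAMTSL4, a gene of microfibrils in the matrix, went from 3.19 to 3.38 FPKM in DMSO to 1.93 to 2.55 FPKM (-0.39 ± 0.050; adjusted p = 0.0139).

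The other falls were of mixed kind. IFIT1, an interferon-induced gene whose product binds viral RNA, stood at 15.4, 15.1 and 15.6 FPKM in DMSO, at 13.4, 13.3 and 13.2 with BPA 0.25 nM, at 12.1, 12.1 and 12.3 with BPA 2500 nM and at 13.2 and 12.4 with E2. All treated libraries lay below DMSO, as the rule requires (-0.25 ± 0.033; adjusted p = 0.0146). JAK3, a kinase of cytokine receptors, went from 2.25 to 2.51 FPKM to 1.6 to 2.01 FPKM. BNIP3, a receptor for removal of mitochondria that low oxygen induces, stood at 34.0, 32.9 and 30.5 FPKM in DMSO and at 25.8 to 28.9 FPKM with treatment (-0.26 ± 0.043; adjusted p = 0.0304). P4HA1, a subunit of collagen prolyl 4-hydroxylase, stood at 24.8, 24.5 and 24.0 FPKM and at 20.2 to 21.8 FPKM (-0.21 ± 0.034; adjusted p = 0.0263). DHTKD1, a mitochondrial enzyme gene of lysine breakdown, POLR3GL, a subunit of RNA polymerase III, C17orf58 and FAM114A1 fell by 0.23 to 0.38. POLR3GL and RSPH3 were called in none of the 11 fits that left out a library. A locus filed as both MIR31HG, the host transcript of miR-31, and MIR31 fell by 0.39, while a second locus of MIR31HG on the same strand, with a mean of 1.65 FPKM, was at 0.35 (adjusted p = 0.277), so a fall of MIR31HG as a whole is not shown. AC023593, opposite to MCM2, fell by 0.39. HNRNPA1P4, a processed pseudogene that shares sequence with HNRNPA1 so that its reads are uncertain, fell by 1.33 from 6.84 to 13.8 FPKM in DMSO to 2.14 to 3.84 FPKM.

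The rule keeps the treated groups close at the 44 loci, so their differences there are given as a description. Over all tested loci limma called 8 (0.0657%) for BPA 2500 nM minus BPA 0.25 nM, 6 (0.0493%) for E2 minus BPA 0.25 nM and 5 (0.041%) for E2 minus BPA 2500 nM. At the 44 the 95% intervals excluded 0 at 7 loci for BPA 2500 nM against BPA 0.25 nM, at 2 for E2 against BPA 0.25 nM and at 0 for E2 against BPA 2500 nM. The 7 were NOP16, ADAMTSL4, IFIT1, TNN, HNRNPM, C17orf58 and VAMP4. The median distance from DMSO was 0.26 for BPA 0.25 nM, 0.32 for BPA 2500 nM and 0.32 for E2, and BPA 0.25 nM was nearest to DMSO at 33 of the 44. Over all tested loci BPA 0.25 nM was nearest at 5251 of 12182. The median 95% interval reached 0.13 either side for the 2 BPA doses and 0.15 for E2 against either dose. The members nearest the limit on the spread were PPIF at 0.494, JAK3 at 0.495 and TNN at 0.499 of the difference inside it, and AC048341 at 0.508, PRMT5 at 0.511 and NOL6 at 0.513 outside it.

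**Figure D4:**
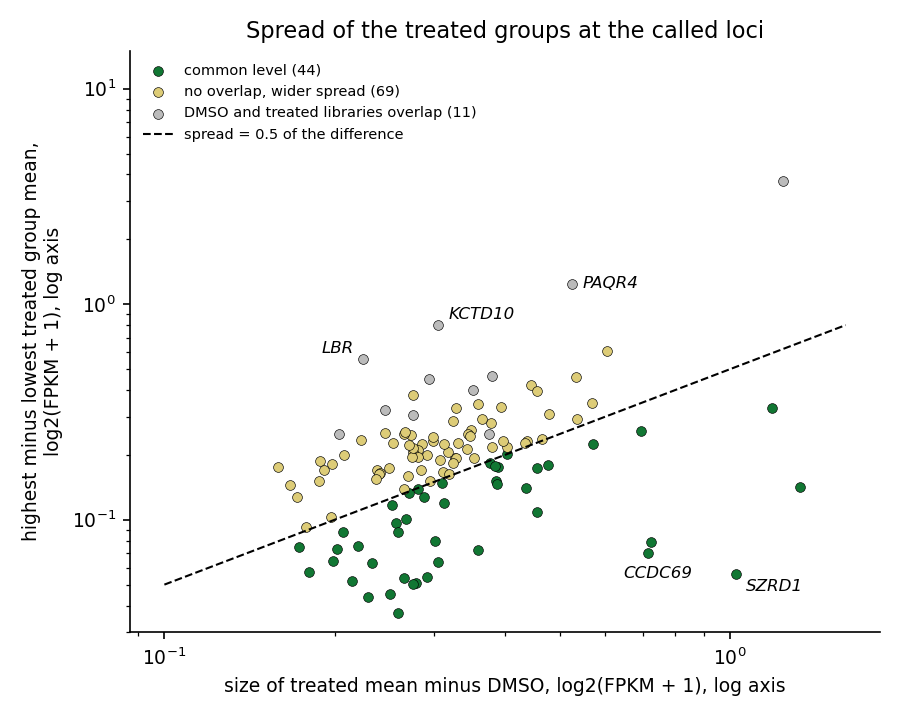
For the 124 called loci the highest minus lowest treated group mean (y axis, log scale) is plotted against the size of the treated minus DMSO difference (x axis, log scale), both in log2(FPKM + 1). The dashed line marks a spread of 0.5 of the difference: 44 loci without overlap lie on or under it, 69 without overlap lie above it, and at 11 DMSO and treated libraries overlap.

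At the other 80 called loci the treated groups were less even or overlapped DMSO. Over all tested loci 14 (0.115%) were called for a difference among the 3 treated groups, a count that leaving out E2 replicate 1 or 2 raised to 59 and 31 and leaving out BPA 0.25 nM replicate 2 lowered to 4. BPA 0.25 nM was nearest to DMSO at 68 of the 80, BPA 2500 nM at 5 and E2 at 7, while over all tested loci the counts were 5251, 3253 and 3678. ODC1 encodes the first enzyme of polyamine synthesis. It stood at 72.9, 72.8 and 75.8 FPKM in DMSO, at 85.2, 85.5 and 85.6 with BPA 0.25 nM, at 98.1, 99.3 and 95.9 with BPA 2500 nM and at 95.8 and 95.6 with E2. The 2 BPA groups thus formed steps without overlap, and E2 lay at or just under the upper step (0.33 ± 0.028 SE; adjusted p = 0.00268). MT-TF, the mitochondrial phenylalanine tRNA gene, named here after its values were seen, stood at 28.98 to 33.1 FPKM in DMSO, 35.9 to 37.3 with BPA 0.25 nM, 50.2 to 55.8 with BPA 2500 nM and 55.5 to 57.6 with E2 (0.61 ± 0.048; adjusted p = 0.002). ODC1 and MT-TF were the other 2 loci called in all 11 fits that left out 1 library.

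At a few called genes 1 treatment stood apart from DMSO and from the other treatments. KCTD10, an adaptor of a ubiquitin ligase, stood at 7.12, 7.09 and 7.30 FPKM in DMSO, 6.85 to 7.13 with BPA 0.25 nM and 6.73 and 7.08 with E2, but at 3.25, 3.79 and 3.73 with BPA 2500 nM. CAMK2N1, an inhibitor of a calcium-dependent kinase, and CALCRL, a receptor of calcitonin-family peptides, were likewise lowest with BPA 2500 nM, at 3.56 to 3.67 and 4.59 to 4.82 FPKM against 5.48 to 6.33 and 7.16 to 7.34 in DMSO. PAQR4 and LBR, the lamin B receptor, moved with E2: PAQR4 stood at 14.6 and 14.3 FPKM there against 4.34 to 5.99 in the other groups, and LBR at 13.7 and 14.3 FPKM against 20 to 22.1. Without the E2 group the differences of PAQR4 and LBR were 0.11 and -0.04 and were not called. A short locus on the strand opposite to YWHAE was listed at 0 in all libraries but those of E2, at 7.41 and 19.8 FPKM. That locus passed the filter on low values through E2 alone. These loci passed the test of the treated mean without a shared level.

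**Figure D5:**
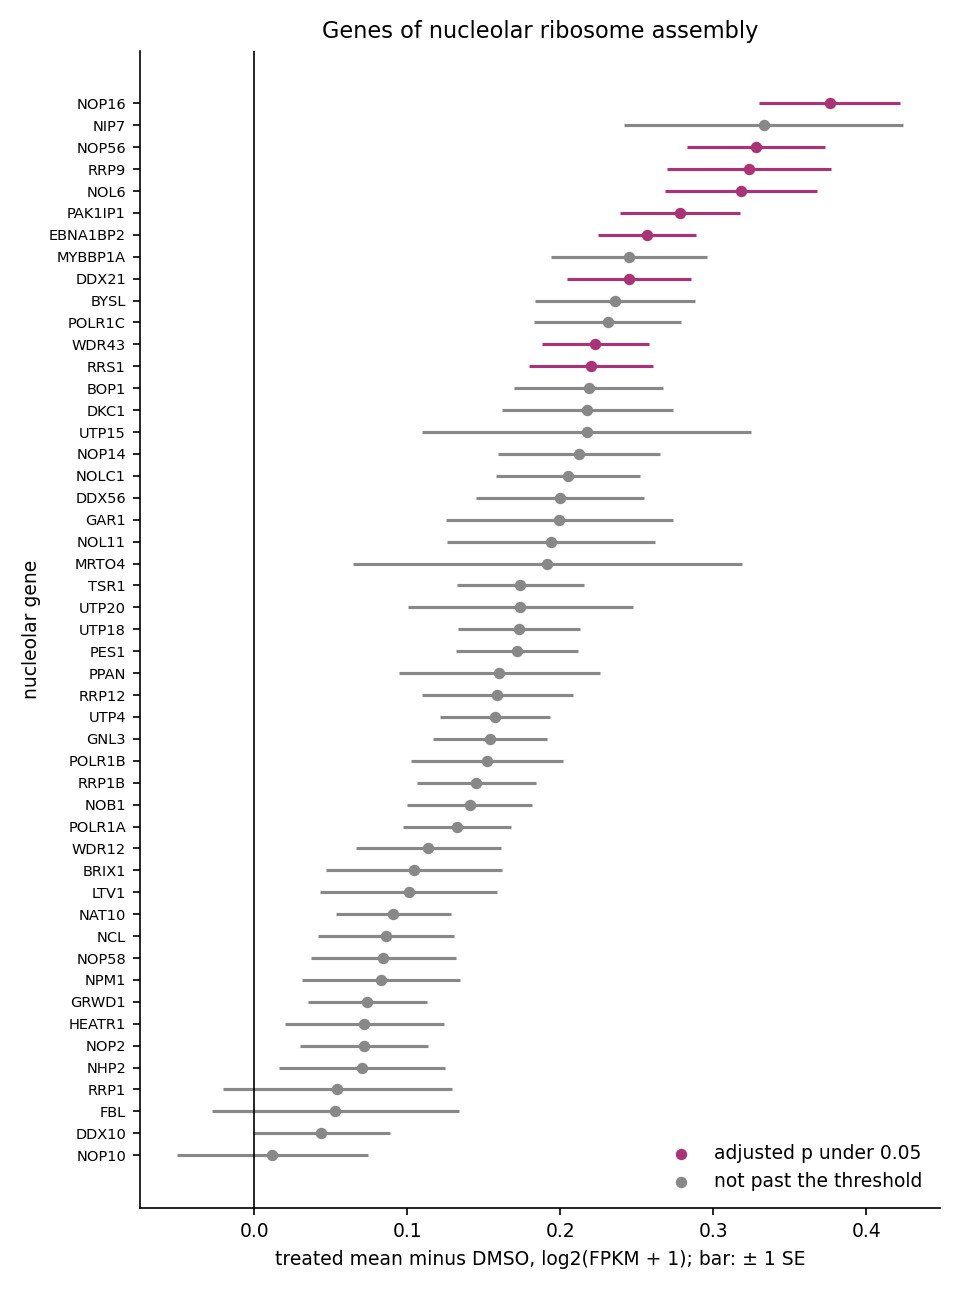
Points give the treated mean minus DMSO in log2(FPKM + 1) (x axis) for 49 genes of nucleolar ribosome assembly (y axis), with bars of 1 SE and called genes in colour. All 49 points lie above 0, and 9 of them were called.

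Nucleolar ribosome assembly was the list with the most called members, though the members were chosen with earlier results of these data known. Of its 49 measured genes, 9 rose and 0 fell, beside 0.394% called higher and 0.624% lower over all tested loci. All 49 differences were positive, with a median of 0.17, beside 45.6% positive and a median of -0.01 over all tested loci. The 9 were NOP56, NOP16, RRP9, NOL6, WDR43, EBNA1BP2, RRS1, DDX21 and PAK1IP1, of which 4 had a common treated level. NOP56, a core protein of the particles that methylate ribosomal RNA, stood at 31.8, 32.3 and 35.4 FPKM in DMSO, 38 to 40.3 with BPA 0.25 nM, 43.8 to 45.6 with BPA 2500 nM and 44.2 and 40.2 with E2 (0.33 ± 0.045; adjusted p = 0.0171). DDX21, a helicase of the nucleolus, went up in steps from 66.6 to 70.1 FPKM in DMSO to 71.7 to 76.7, 78.4 to 84.8, and 84.9 and 92.0 FPKM. The list's median difference from the shared DMSO libraries was 0.11 for BPA 0.25 nM, 0.18 for BPA 2500 nM and 0.19 for E2. Of the 49, 22 had all treated libraries above all DMSO libraries, beside 2.34% of all tested loci. The calls depended on the fit more than the sign did: 47 to 49 differences were positive in every fit. The list had 14 called members with the median of ratios, 5 without the E2 group, 4 with no filter on low values, 1 with the treated libraries pooled and 0 with the replicate block. Without DMSO replicate 1 or 2 it had 0, without DMSO replicate 3 it had 5, without BPA 0.25 nM replicate 1 or 3 it had 5, and without BPA 2500 nM replicate 1 or 2 it had 4.

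Other lists had few called members. Over all tested loci 0.394% were called higher and 0.624% lower, and 1950 of 12182 had an unadjusted p under 0.05. Of 79 cytosolic ribosomal proteins 64 were positive (median 0.06) and RPL5 alone rose, and of 41 mitochondrial ribosomal proteins 27 were positive and MRPL27 rose, by 0.20. The medians of both were not even across treatments or libraries: for cytosolic ribosomal proteins they were 0.12 for BPA 0.25 nM, 0.07 for BPA 2500 nM and 0.01 for E2, and without DMSO replicate 2 only 49 of 79 cytosolic and 21 of 41 mitochondrial ones were positive (medians 0.03 and 0.01). In DNA replication 29 of 33 were positive and MCM7 rose. Of 29 genes of the NRF2 and antioxidant list 23 were positive and SRXN1 rose, with a list median of 0.01 for E2 and 0.08 for BPA 0.25 nM. Heat shock and chaperone genes were positive at 15 of 17 loci with 0 called in limma and 9 at an unadjusted p under 0.05, led by DNAJA1 at 0.16 (adjusted p = 0.0872) and HSP90AB1 at 0.12 (adjusted p = 0.0957). Proteasome subunits were positive at 26 of 31 and oxidative phosphorylation subunits at 29 of 43, with 0 called and 3 and 4 at an unadjusted p under 0.05, and the median of the second was 0.11 for BPA 0.25 nM and 0.01 for E2. The mitochondrially encoded mRNAs, measured at 6 loci because the files join most of them, were negative at 5, and 2 had an unadjusted p under 0.05 with 0 called. In the mitosis list 25 of 37 were positive and 0 called, with 8 at an unadjusted p under 0.05 and 2 called with the median of ratios.

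Glycolysis and hypoxia genes leaned the other way. Of 29 measured, 23 were negative (median -0.11), 4 fell and 0 rose, beside 0.624% called lower and 45.6% positive over all tested loci. The 4 were BNIP3 and P4HA1, described above, SLC2A3, a glucose transporter, and PFKFB4, a regulator of glycolysis that the files join with UCN2. SLC2A3 stood at 5.87, 6.25 and 6.21 FPKM in DMSO, 4.47 to 5.37 with BPA 0.25 nM, 3.95 to 4.25 with BPA 2500 nM and 4.79 and 4.67 with E2 (-0.35 ± 0.052; adjusted p = 0.0217). Interferon response genes were negative at 23 of 27 loci (median -0.08), and IFIT1 and GBP2 fell. The list's median was -0.0015 for BPA 0.25 nM, -0.13 for BPA 2500 nM and -0.11 for E2. GBP2, an interferon-induced GTPase, stood at 5.91, 5.90 and 5.97 FPKM in DMSO, 4.88 to 4.97 with BPA 0.25 nM, 3.92 to 4.27 with BPA 2500 nM and 4.59 and 4.53 with E2 (-0.33 ± 0.036; adjusted p = 0.0118). Without DMSO replicate 1 or 2 no member of these lists was called, and without DMSO replicate 3 each list had 1. The glycolysis and hypoxia list also had 0 without BPA 0.25 nM replicate 1, with no filter on low values, with pooled treatments and with the replicate block. It had 1 without BPA 0.25 nM replicate 3 or BPA 2500 nM replicate 1 or 2, and 2 without BPA 0.25 nM replicate 2, without the E2 group or with the median of ratios. The interferon list also had 0 with pooled treatments and with the block.

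Single members moved in several lists, beside 0.394% called higher and 0.624% lower over all tested loci. In one-carbon, methionine and polyamine metabolism 2 of 27 rose, ODC1 and ADI1 of methionine salvage (0.24), and MTR, the methionine synthase, fell by 0.38. Of 14 genes of the TGF-beta and BMP list ID2, a repressor of differentiation factors, rose by 0.28, from 35.9 to 37.6 FPKM in DMSO to 46.7 to 49.5 FPKM with BPA 2500 nM and 47.2 to 48.4 FPKM with E2, while BPA 0.25 nM, at 37.3 to 39.6 FPKM, overlapped DMSO. AMOTL2, of the Hippo pathway, rose by 0.53 as 1 of 21 YAP and TAZ targets. PLK2 rose by 0.28 as 1 of 23 p53 targets, and SPRY2, a feedback inhibitor of growth factor signalling, by 0.25 as 1 of 28 immediate early and feedback genes. SCD, the stearoyl desaturase, fell by 0.17 as 1 of 30 genes of lipid synthesis. P4HA1 was the 1 called member of 14 matrix genes. Of 24 genes of the ER stress and ATF4 list and 27 of the contractile cytoskeleton, 0 were called. Of these, 7 and 6 had an unadjusted p under 0.05, beside 1950 of all 12182 tested loci. STC2 of the first was at -0.38 (adjusted p = 0.0537) and CNN1 of the second at -0.25 (adjusted p = 0.0872).

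Hormone-related lists had no called member in limma as fitted, but 1 classical oestrogen target, STC2, was called lower with totals equal without mitochondrial loci and without BPA 2500 nM replicate 3. Of 13 measured classical oestrogen targets 8 were positive and 4 had an unadjusted p under 0.05, beside 1950 of all 12182 tested loci. STC2 stood at 3.03 FPKM in DMSO and at 2.36, 1.97 and 2.01 FPKM in the treated groups, and MYC at 2.67 FPKM against 3.23, 4.08 and 3.91 FPKM (0.38 ± 0.137; adjusted p = 0.211), a difference of 0.19 without DMSO replicate 3. Among 4 measured steroid receptor genes 1 had an unadjusted p under 0.05. This was ESRRA, an orphan receptor that controls mitochondrial genes, at 14.9 FPKM in DMSO and 19.3, 19.7 and 19.5 FPKM with BPA 0.25 nM, BPA 2500 nM and E2. All its treated libraries lay above DMSO, and the difference of 0.38 ± 0.093 did not pass (adjusted p = 0.0879). Of 7 genes of the AhR and xenobiotic list 0 had an unadjusted p under 0.05, with TIPARP at 0.11 and CYP1B1 at -0.13.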

How the data were processed

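RNA of IOSE80 cells was measured in 11 libraries, grouped by the treatment label. The authors deposited FPKM values for each locus. Per the submitters' processing notes they used edgeR, StringTie, HISAT and UMI-tools, with no version or setting named. Those notes name hg19, but 74.8% of 14123 Ensembl loci have the start and end of GENCODE 29, so positions are given on GRCh38. Whether libraries were stranded was not found in the labels, so antisense and joined loci are uncertain (617 tested loci name several coding genes). Read depth is unknown, since no steps of single reads show in the values, and precision rests on the spread between libraries (median SE 0.070).

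log2(FPKM + 1) was fitted with limma 3.58.1 in R 4.3.3 (1 mean per group, trend and robust settings, statmod 1.5.0), two-sided, with Benjamini-Hochberg adjustment over 12182 loci, and checked on simulated data. Tables were made with pandas 2.3.3 and numpy 2.4.6 in Python 3.11.15, and plots with matplotlib 3.10.9. Promoters are from RefSeq (GRCh38.p14). Of 778 symbols in 29 lists 760 matched a locus, 71 of them joined, and 14 lists had a called member. The members and lists were chosen with earlier results of these data known. Named genes are the 15 largest rises and falls at a common level among loci of 1 coding gene, the 5 called genes of widest treated spread, up to 4 called members of a list or the 2 of smallest p, and 3 genes either side of the spread limit. Other members of the common level are named as well. Alternatives were pseudocount, filter, scaling, variance settings, pooled treatments, no E2 group, replicate block and each library left out. A fit without 2 libraries at once was added after seeing the data. Replicate numbers were not treated as pairs in the main fit.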

Additional observations from a re-analysis of the deposited data

How the results depend on the processing

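The count of 124 called loci stayed within 1.5 times under both other pseudocounts, both other scalings, a filter on a mean FPKM of at least 5 and plain variance settings (104 to 161). It was 44 with no filter on low values, 5 with the 8 treated libraries pooled as 1 group, where differences among treatments enter the spread, and 58 without the E2 group. The count of 44 at a common level became 17, 5 and 26 under these 3 settings, 15 with a spread limit of 0.25 and 113 with none. Leaving out 1 library gave 7 to 190 called loci, 5 to 65 at a common level, 0 to 5 for BPA 0.25 nM against the other groups, 1 to 31 for BPA 2500 nM, 5 to 162 for E2, and 4 to 59 for a difference among the 3 treated groups (14 as fitted, 8 with a pseudocount of 0.1 and 7 with the median of ratios). Without DMSO replicate 2 and E2 replicate 2 together, chosen after seeing the data, 9 loci were called and 5 had a common level.

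Same-numbered libraries of different groups correlated between -0.117 and 0.164 in their deviations (median -0.006). Libraries of unlike number correlated between -0.164 and 0.166 (median 0.011). A weak correlation over all loci cannot exclude shared handling, so whether the labels' numbers pair the samples is not known. With the replicate block 6 loci were called and 3 had a common level, BPA 2500 nM differed at 3 and the treated groups among each other at 4.

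Of the 124 called loci, 123 kept their sign in all 22 alternative fits. The exception is the locus opposite YWHAE, at 0 without E2. At the 113 called loci without overlap, only another scaling or the replicate block could have changed the sign. With a pseudocount of 0.1 the differences of PRR36, TCTE3, AL353763 and the YWHAE locus were -0.62, -0.88, -0.64 and 2.31. As fitted, with a pseudocount of 1, they were -0.40, -0.46, -0.40 and 1.24, on a scale that understates changes of low genes. The YWHAE locus was not called with the smaller pseudocount (limma, adjusted p = 0.148). What set these loci apart from DMSO was not tested.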
